A study of Mus musculus with 4 samples.

Results

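Lef1, Sox4, Satb1, Bach2, Tox and Tcf7 encode transcription factors of immature and naive T lineage cells, and their transcripts were compared between invariant natural killer T (iNKT) cells of CD4-Vα14Tg mice and of WT control mice. The genes were found as probe sets whose platform annotation names that gene alone, which gave 6 probe sets for 5 of the 6 genes, among 41345 probe sets in all and 23521 with 1 gene symbol. Sox4 had 2 probe sets and Lef1, Satb1, Bach2 and Tox had 1 each. Tcf7, which encodes TCF-1, was not analysed here. iNKT cells carry a semi-invariant T cell receptor (TCR) that recognises lipids on CD1d. CD4-Vα14Tg mice carry a transgene for the Vα14 TCR α chain, driven by the CD4 promoter, which is active in all T cells that express CD4 and not in iNKT cells alone. The series asked how the iNKT cell transcriptome differs when this chain comes from the transgene. Total RNA of each genotype was hybridised to 2 Affymetrix whole-transcript arrays. The labels give neither age, sex, organ nor sorting gate, name the RNA source as frozen tissue, and do not say whether replicates were separate mice, so p-values measure the spread between these samples, which may be technical.

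LEF-1 and TCF-1 are DNA-binding partners of β-catenin that bind through a high mobility group (HMG) box, and thymocytes need them to pass through the early and CD4+CD8+ stages. SOX4 and TOX also carry HMG boxes: SOX4 acts in early lymphocyte development, and TOX is needed for the CD4 T and NKT lineages to form in the thymus. SATB1 folds and organises chromatin in thymocytes, and BACH2 is a basic leucine zipper repressor that holds back effector differentiation. iNKT cells arise from CD4+CD8+ thymocytes, pass through a short-lived immature stage in which Lef1 and Sox4 are high, and then mature into effector subsets.

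The upstream sequences of Lef1 and Sox4, the members with higher signal in CD4-Vα14Tg cells, are shown because both genes moved the same way. Each is the 250 bases before the most upstream annotated start of the gene, from RefSeq on GRCm38.p6, 5′ to 3′ on the gene's strand. Lef1 is chr3:131110047-131110296 on the plus strand and Sox4 is chr13:28953700-28953949 on the minus strand. Capitals mark matches, on either strand, to CCAAT (the CCAAT box), CTTTGAA or CTTTGAT (TCF/LEF), AACAATG or AACAAAG (SOX), TGACTCA (BACH and AP-1) and GCGTGGGCG or GCGGGGGCG (EGR).
Lef1: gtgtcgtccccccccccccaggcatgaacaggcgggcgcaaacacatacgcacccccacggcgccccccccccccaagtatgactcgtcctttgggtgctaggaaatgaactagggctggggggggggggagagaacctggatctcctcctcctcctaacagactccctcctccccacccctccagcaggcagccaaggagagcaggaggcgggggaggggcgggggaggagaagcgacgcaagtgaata
Sox4: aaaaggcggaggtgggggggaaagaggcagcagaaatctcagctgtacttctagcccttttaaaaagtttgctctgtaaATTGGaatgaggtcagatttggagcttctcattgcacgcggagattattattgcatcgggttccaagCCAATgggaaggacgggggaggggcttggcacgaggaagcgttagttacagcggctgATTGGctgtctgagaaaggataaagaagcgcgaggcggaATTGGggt
The Lef1 stretch held no match to any of these letters. The Sox4 stretch held 4 CCAAT matches, starting 171, 104, 47 and 8 bases before the start site and not overlapping another motif. CCAAT occurred in 33.8% of 32851 upstream stretches of the same length, TCF/LEF letters in 7.48%, SOX letters in 8.12%, TGACTCA in 4.46% and EGR letters in 3.06%. These shares count stretches with any match. Matches per stretch were not counted, so they do not show how common 4 CCAAT matches are. RefSeq gave 13 such stretches for 5 of the 6 genes, Tox being the gene with none. TCF/LEF letters and TGACTCA were in 0 of the 13, and SOX letters, EGR letters and CCAAT in 2 of the 13 each. The 2 with SOX letters were overlapping stretches of Satb1 that hold the same site. Some of the 13, among those of Lef1 and of Satb1, overlap each other and are not independent. The Lef1 stretch was 66.4% G or C and the Sox4 stretch 50.8%, beside a median of 52.4% over all stretches.

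Lef1 and Sox4 were higher in CD4-Vα14Tg iNKT cells, by 1.79-fold and 1.91-fold, while Satb1, Bach2 and Tox did not pass the test and differed by less than 1.08-fold. All 5 genes lay above the filter level on all 4 arrays, which was the 40th percentile of named probe sets (4.65 to 4.69 on the log2 scale), so none entered the test through 1 group alone. With limma and Benjamini-Hochberg adjustment over 13602 genes, 2 of the 5 passed at 0.05 as higher and 0 as lower. Of all genes tested, 1.95% were called, 0.61% higher and 1.34% lower. In a bulk sample a larger share of cells of 1 type and more transcript per cell cannot be told apart.

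Lef1 read 10.75 and 10.72 on the CD4-Vα14Tg arrays and 9.83 and 9.96 on the WT arrays (log2 signal of RMA, the robust multi-array average). Both CD4-Vα14Tg arrays were high and close together, and the groups did not overlap, the gap between them being 0.76. The mean was 10.74 ± 0.03 against 9.89 ± 0.09 (SD, n = 2 arrays each). This was a log2 difference of 0.84 with an SE of 0.12 (limma adjusted p = 0.0172), or 1.79-fold with a 95% interval from 1.48 to 2.18. Of the genes tested, 101 had a larger positive difference. The call was lost without CD4-Vα14Tg replicate 1 (limma adjusted p = 0.0733), CD4-Vα14Tg replicate 2 (0.0633) or WT replicate 1 (0.0705) and stood at 0.0499 without WT replicate 2, with the difference between 0.78 and 0.90.

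Sox4 was measured by a brighter and a dimmer probe set, and both were higher in CD4-Vα14Tg cells. The brighter probe set read 7.88 and 7.50 on the CD4-Vα14Tg arrays and 6.84 and 6.68 on the WT arrays. The CD4-Vα14Tg arrays were further apart than for Lef1 but both lay above WT, with a gap of 0.67 between the groups. Its mean was 7.69 ± 0.27 against 6.76 ± 0.11 (SD, n = 2 arrays each), a log2 difference of 0.94 with an SE of 0.16 (limma adjusted p = 0.0347) and a fold of 1.91 with a 95% interval from 1.48 to 2.47. The dimmer probe set read 5.94 and 5.73 against 5.24 and 4.88, again without overlap, a log2 difference of 0.78 or 1.71-fold. On both probe sets replicate 1 was the brighter array of each genotype. The Sox4 call was lost without CD4-Vα14Tg replicate 1 (limma adjusted p = 0.106), WT replicate 1 (0.0627) or WT replicate 2 (0.135), with differences of 0.74, 1.01 and 0.86, and was kept without CD4-Vα14Tg replicate 2 (0.0264), at 1.13. When every probe set of the array was tested, named or not and with no filter, neither Lef1 (limma adjusted p = 0.130) nor Sox4 (0.239 for the brighter and 0.317 for the dimmer probe set) passed.

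**Figure D1:**
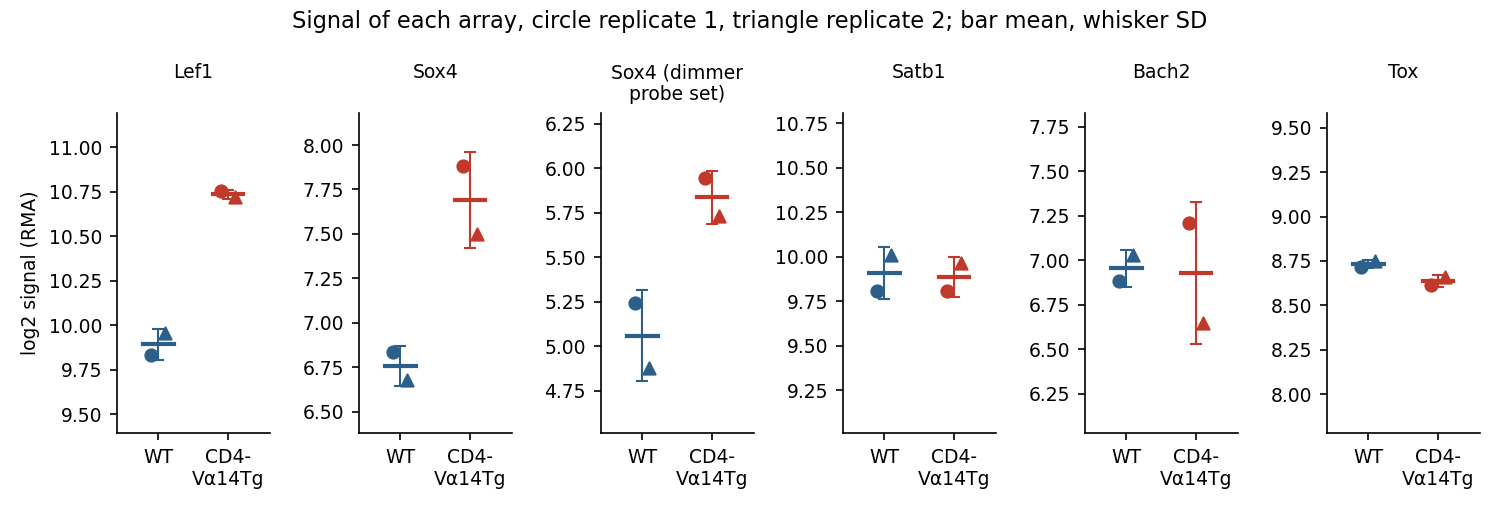
Log2 signal (RMA) of each array for the 6 probe sets of Lef1, Sox4, Satb1, Bach2 and Tox, in WT (blue) and CD4-Vα14Tg (red), with a panel per probe set on axes of equal span; circles are replicate 1, triangles replicate 2, bars the mean and whiskers the SD of 2 arrays. Lef1 and both Sox4 probe sets show no overlap between genotypes with CD4-Vα14Tg higher, Satb1 and Bach2 overlap, and the Tox arrays differ by 0.10 on average.

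Satb1, the chromatin organiser, read 9.81 and 9.97 on the CD4-Vα14Tg arrays and 9.81 and 10.01 on the WT arrays. The genotypes overlapped, and replicate 2 was the brighter array in both. Its log2 difference was -0.02 (95% interval -0.34 to 0.29, limma adjusted p = 0.989), which in fold runs from 0.793 to 1.22. Leaving out single arrays moved this difference between -0.13 and 0.08.

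Bach2 read 7.21 and 6.65 on the CD4-Vα14Tg arrays and 6.88 and 7.03 on the WT arrays, so that both WT arrays lay between the CD4-Vα14Tg arrays. The log2 difference was -0.03 (95% interval -0.48 to 0.42, limma adjusted p = 0.991), or a fold from 0.718 to 1.34. Bach2 had the widest interval of the 5 genes, and the SD of its CD4-Vα14Tg arrays was 0.40, beside a median SD of 0.10 over all genes tested. Without CD4-Vα14Tg replicate 1 the difference was -0.31, and without CD4-Vα14Tg replicate 2 it was 0.26, neither past the test. A further probe set shared by Bach2 and the antisense gene Bach2os read 4.62 and 4.67 against 4.97 and 4.59, near the filter level, and cannot be assigned to either gene.

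Tox read 8.61 and 8.66 on the CD4-Vα14Tg arrays and 8.72 and 8.75 on the WT arrays. All arrays lay close together, and the groups stood apart by 0.06 with CD4-Vα14Tg lower. The log2 difference was -0.10 (95% interval -0.37 to 0.17, limma adjusted p = 0.870), or a fold from 0.775 to 1.13. Arrays of the groups failed to overlap in 39.1% of all genes tested, 15.7% with CD4-Vα14Tg higher and 23.4% with it lower, against 3 of these 5 genes. Satb1, Bach2 and Tox did not pass the test, and the upper ends of their intervals, 0.29, 0.42 and 0.17, lay below the differences measured for Lef1 and Sox4.

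Genes nearest in pattern were sought by the root mean square difference of the 4 array values, each gene centred on its own mean. Lef1 itself varied by 0.42 about its mean. The nearest named genes to it were Tanc2, a scaffold protein gene (0.015), Mtss1, an actin and membrane regulator (0.032), and Il6ra, the interleukin-6 receptor (0.039). For Sox4, which varied by 0.49, they were Vangl2, a planar cell polarity gene (0.063), Pkp4, a plakophilin (0.071), and Emb, the adhesion molecule embigin (0.072). These 6 genes were all called higher in the same fit, with log2 differences from 0.80 to 0.93. Lef1 and Sox4 lay 0.17 from each other. For Satb1 and Tox the measure picks out little, since 3406 and 4833 genes lay within 0.10 of them. For Bach2, where 233 genes did, the nearest were Fam160a2, Vtcn1 and Rapsn (0.022 to 0.030). The nearest to Satb1 were Cpox, Fam193a and Dr1 and those to Tox were Ppm1g, Decr1 and Atp8b3, none of them past the test. A pattern over 4 arrays of 2 groups says little beyond the group difference and the replicate spread.

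Among relatives of these factors, Sox5 rose and the others did not pass. Sox5, a SOX gene of another subgroup, read 6.595 and 6.578 on the CD4-Vα14Tg arrays and 5.48 and 5.56 on the WT arrays. The 4 values formed tight pairs without overlap, a log2 difference of 1.07 or 2.10-fold (limma adjusted p = 0.0066), and Sox5 remained called when any 1 array was left out (0.0251 to 0.0294). With every probe set tested its limma adjusted p was 0.0677. Of the closest SOX4 relatives, Sox11 read 4.88 to 4.99 over the 4 arrays and Sox12, below the filter, 4.12 to 4.39. Sox13, which is expressed in γδ T cells, had a log2 difference of -0.28 (limma adjusted p = 0.446) and Sox9 had -0.34 (limma adjusted p = 0.354), while Sox8 and Sox10 had 0.02 and 0.05. Sox6, below the filter, read 4.08 to 4.37. Of 6 SOX relatives tested, 1 rose and 0 fell, beside 0.61% called higher and 1.34% lower among all genes tested.

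Other TCF/LEF genes were dim: Tcf7l1 read 4.88 to 5.14 (log2 difference 0.11, limma adjusted p = 0.870) and Tcf7l2, below the filter, 3.81 to 4.05. Bach1, the closest relative of Bach2, read 7.59 and 7.04 against 7.08 and 6.98 and had a log2 difference of 0.29 (limma adjusted p = 0.668). Of 10 tested BACH relatives and small MAF partners limma called 0, and 2 reached an unadjusted p under 0.05, the basic leucine zipper gene Nfe2l3 at -0.50 and the small MAF gene Maff at -0.47. Nfe2l2, the gene of NRF2, had -0.27 (limma adjusted p = 0.640). Tox2 read 6.46 to 6.62 and Tox4 8.09 to 8.28, which came to 0.12 and -0.08 as log2 differences (limma adjusted p = 0.829 and 0.917). Tox3, below the filter, read 4.08 to 4.56. The CUT homeobox genes Cux1 and Cux2 had log2 differences of -0.14 and 0.12. Over 12 other HMG-box genes, among them the abundant chromatin proteins Hmgb1 and Hmgb2 (-0.04 and -0.03), limma called 0, 1 reached an unadjusted p under 0.05 and the median log2 difference was -0.04, beside -0.02 over all genes tested. The first of these by test statistic were Hmg20b at -0.34, Hbp1 at 0.44, Ubtf at -0.20 and Smarce1 at 0.18 (limma adjusted p = 0.325 to 0.714).

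**Figure D2:**
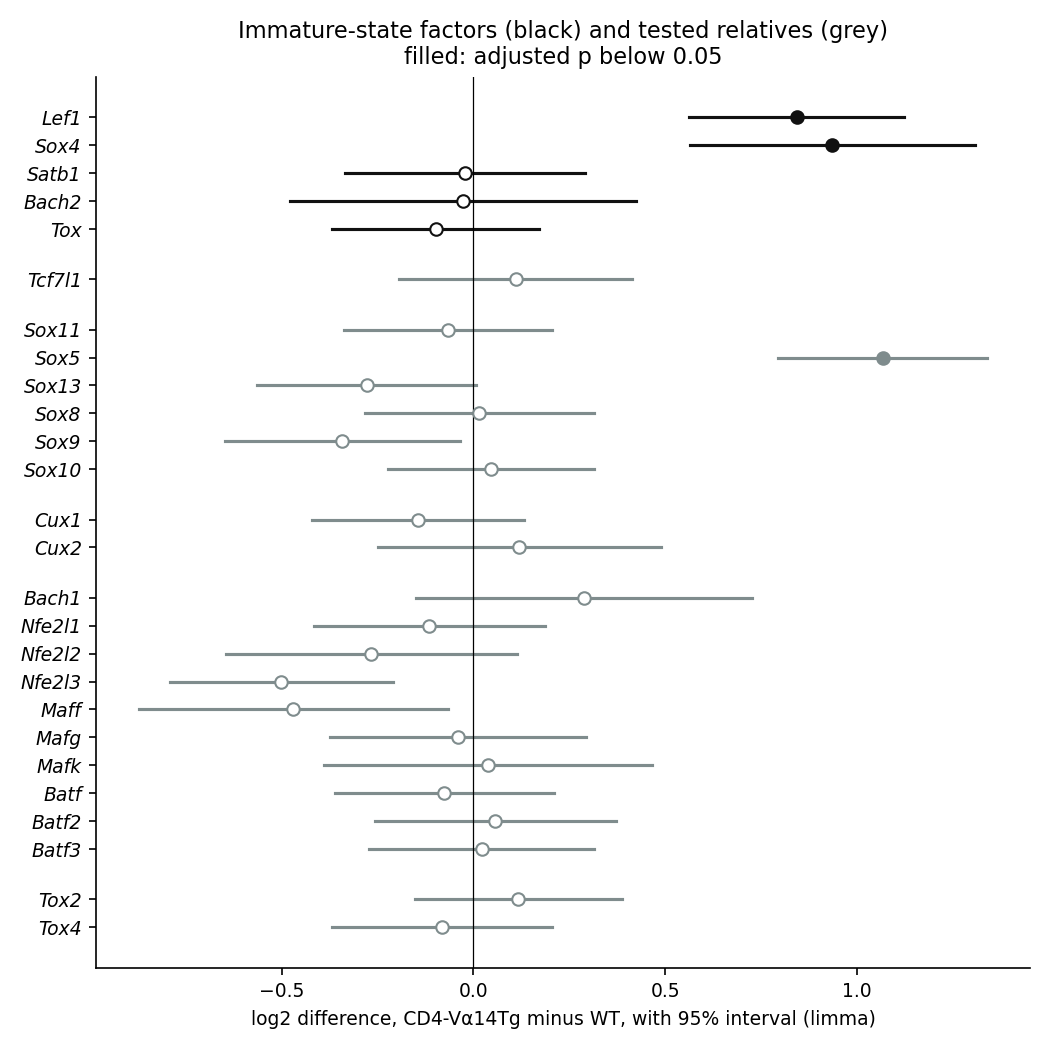
Log2 difference, CD4-Vα14Tg minus WT, with its 95% limma interval, for Lef1, Sox4, Satb1, Bach2 and Tox (black) and for their tested relatives (grey), where filled points have an adjusted p below 0.05. Lef1 at 0.84, Sox4 at 0.94 and Sox5 at 1.07 are filled and lie right of 0, and the open points lie between -0.50 and 0.29.

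β-catenin itself and most genes that act with it around LEF-1 and TCF-1 did not pass the test. Of 27 tested genes of this pathway, 1 was called lower and 0 higher, leaving 26 uncalled around a median difference of 0.04 (log2). Among all genes tested, 1.34% were called lower and 0.61% higher. Ctnnb1, the β-catenin gene, read 9.07 and 9.09 against 8.92 and 9.09, a log2 difference of 0.08 (limma adjusted p = 0.919). Axin2, a feedback inhibitor whose transcription is a common readout of β-catenin with TCF/LEF, read 7.40 and 7.59 against 7.55 and 7.43, which differed by 0.01 on the log2 scale (95% interval -0.30 to 0.31). The gene that fell was Rnf43, a ubiquitin ligase that removes Wnt receptors from the cell surface, at 5.81 and 5.89 against 6.58 and 6.52 (log2 difference -0.69, limma adjusted p = 0.0341). That call was lost without any 1 array (limma adjusted p up to 0.135). Its relative Znrf3 had 0.31, the β-catenin relative Jup 0.37, the co-activator Bcl9 0.36 and the TLE co-repressor Tle4 -0.27 (limma adjusted p = 0.285 to 0.457).

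Genes that accompany TCF-1 and LEF-1 in naive and memory T cells went both ways, with 5 of 17 higher, 1 lower and 11 uncalled. Over all genes tested, 0.61% were called higher and 1.34% lower. This list and the other gene lists were chosen with earlier results of these data known, so their counts are not a test. The median difference of the 17 was 0.45 (log2), beside -0.02 over all genes tested. The 5 were Igfbp4, whose product binds insulin-like growth factors, at 1.97, S1pr1, the egress receptor, at 1.57, Ccr7, a lymph node homing receptor, at 1.55, Nsg2, a neuronal vesicle protein gene also found in naive T cells, at 0.95, and Il6ra at 0.80. Nsg2 read 7.59 and 7.86 against 6.74 and 6.80 (limma adjusted p = 0.0178). The gene that fell was Xcl1, a chemokine made by activated lymphocytes, at 9.81 and 9.69 against 11.35 and 11.28. Slamf6, a marker of stem-like T cells, was 10.57 and 10.49 against 9.63 and 9.97 (log2 difference 0.73, limma adjusted p = 0.0603), and Id3, an inhibitor of E proteins, had 0.57 (limma adjusted p = 0.0848). Tnfsf8, the ligand of CD30, had 0.51 and Cxcr5, a receptor for B cell follicles, -0.57 (limma adjusted p = 0.108 and 0.128). Il7r, the interleukin-7 receptor, had 0.04 and Bcl2, a survival gene, -0.77 (limma adjusted p = 0.980 and 0.191). Il6ra lost its call without any 1 array (limma adjusted p = 0.0709 to 0.0782). The count of higher genes was 3 without CD4-Vα14Tg replicate 2, WT replicate 1 or WT replicate 2.

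Genes of stage 0, the most immature iNKT stage, where Lef1 and Sox4 are high, were likewise mixed. Of 15 tested, 4 rose, 1 fell and 10 stayed uncalled, beside 0.61% called higher and 1.34% lower among all genes tested. The median difference was 0.11 (log2), with 8 differences above 0 and 7 below. Those higher were Themis, a thymocyte selection protein (1.67), Ccr7, which is in the previous list too, Ccr9, a chemokine receptor of thymocytes (2.83-fold), and Cd81, a tetraspanin (0.70, a call lost without any 1 array, limma adjusted p = 0.0888 to 0.146). Cd81 read 10.09 and 10.09 against 9.32 and 9.46. Egr1, an early target of TCR signals, was the gene that fell (log2 difference -0.96, limma adjusted p = 0.0171), and Egr2 had a log2 difference of 0.19 (limma adjusted p = 0.699). Among uncalled genes of the list, the first by test statistic were Id3 at 0.575 and Myb at -0.488 (limma adjusted p = 0.0848 and 0.141). The EGR co-repressor Nab2 had -0.35 and the activation marker Cd69 -0.39 (limma adjusted p = 0.275 and 0.361). Cd24a, the surface marker that defines this stage, read 4.43 to 4.57 over the 4 arrays, below the filter level on each. The Egr1 call did not survive leaving out CD4-Vα14Tg replicate 1 or WT replicate 2, where limma's adjusted p was 0.0733 and 0.0778.

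Other transcription factors of early T-lineage cells gave 0 calls among 27 by limma, with 8 at an unadjusted p under 0.05 and a median log2 difference of 0.00. Limma called 1 of them lower, and 0 higher, with the 60th percentile filter (25 tested), with a further quantile normalization, with the mean of all probe sets of a gene, with robust eBayes and without WT replicate 1. Foxo1, which maintains naive T cells, read 9.26 and 9.42 against 8.79 and 8.72 (log2 difference 0.58, limma adjusted p = 0.0721), and Runx1 had 0.53 (limma adjusted p = 0.0849). In the other direction, Hhex, a homeobox factor of lymphoid progenitors, had -0.76 (limma adjusted p = 0.0517) and Ikzf3, the gene of Aiolos, -0.65 (limma adjusted p = 0.0791). The groups of arrays did not overlap for these 4 genes, which were picked by their test statistic. Overlap was also absent in 39.1% of all genes tested. Bcl11b, which fixes T-lineage identity, had 0.44 and Myb, needed at the CD4+CD8+ stage, -0.49 (limma adjusted p = 0.164 and 0.141). Of unadjusted p under 0.05 there were 11.7% among all genes tested.

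Genes that BACH2 is known to hold back, and genes linked to TOX, held falls that passed and no rise that did, with differences above 0 in 3 of 11 and 2 of 10. Of all genes tested, only 0.61% were called higher and 1.34% lower, so a list this short with no rise says little. Of 11 effector genes restrained by BACH2, 2 fell, 0 rose and 9 stayed uncalled. The count lower was 4 with the 60th percentile filter and 1 with every probe set tested. Their median difference of -0.36 (log2) ranged from -0.59 without CD4-Vα14Tg replicate 1 to -0.12 without CD4-Vα14Tg replicate 2. Those that fell were Gzmb, a cytotoxic granule protease (7.62 and 7.33 against 10.34 and 10.25), and Ahr, the aryl hydrocarbon receptor (7.31 and 7.04 against 8.61 and 8.74). Prdm1, the gene of Blimp-1 and a classic BACH2 target, read 5.62 and 5.60 against 6.20 and 6.20, a log2 difference of -0.59 (limma adjusted p = 0.0547). Gadd45g had -0.74 and Rora 0.51 (limma adjusted p = 0.0606 and 0.187), and Nfil3 had -0.40 (limma adjusted p = 0.489). Of 10 TOX-linked receptor and Nr4a genes, 2 fell, 0 rose and 8 stayed uncalled. The falls were Entpd1, the ectoenzyme CD39, at 6.14 and 6.10 against 7.93 and 8.09, and Cd244a, the receptor 2B4, at 5.13 and 4.92 against 6.40 and 6.47. Nr4a2, an orphan nuclear receptor gene, went the other way at 8.56 and 7.79 against 7.64 and 7.29, a log2 difference of 0.71 (limma adjusted p = 0.298). Its groups did not overlap, which held for 39.1% of all genes tested. Cd160 had -0.91, Lag3 -0.35 and Nr4a1 -0.34 (limma adjusted p = 0.0502, 0.489 and 0.584). Limma called 3 of the 10 lower under several settings, among them a filter on the mean, and 1 with every probe set tested. Of 8 mature iNKT transcription factors tested, 2 fell, 0 rose and 6 stayed uncalled, with a median log2 difference of -0.31. Tbx21, the gene of T-bet, and Runx3 fell, with log2 differences of -1.39 and -1.28. Prdm1 and Ikzf3 are also in this list, at -0.59 and -0.65 (limma adjusted p = 0.0547 and 0.0791). Zbtb16, which encodes PLZF, had 0.23 (limma adjusted p = 0.567) and Zbtb7b, which encodes ThPOK, 0.06 (limma adjusted p = 0.946). Of the genes called in all these lists, Igfbp4, Ccr7, Xcl1, Gzmb and Entpd1 kept their calls when every probe set was tested, and the others lost them.

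**Figure D3:**
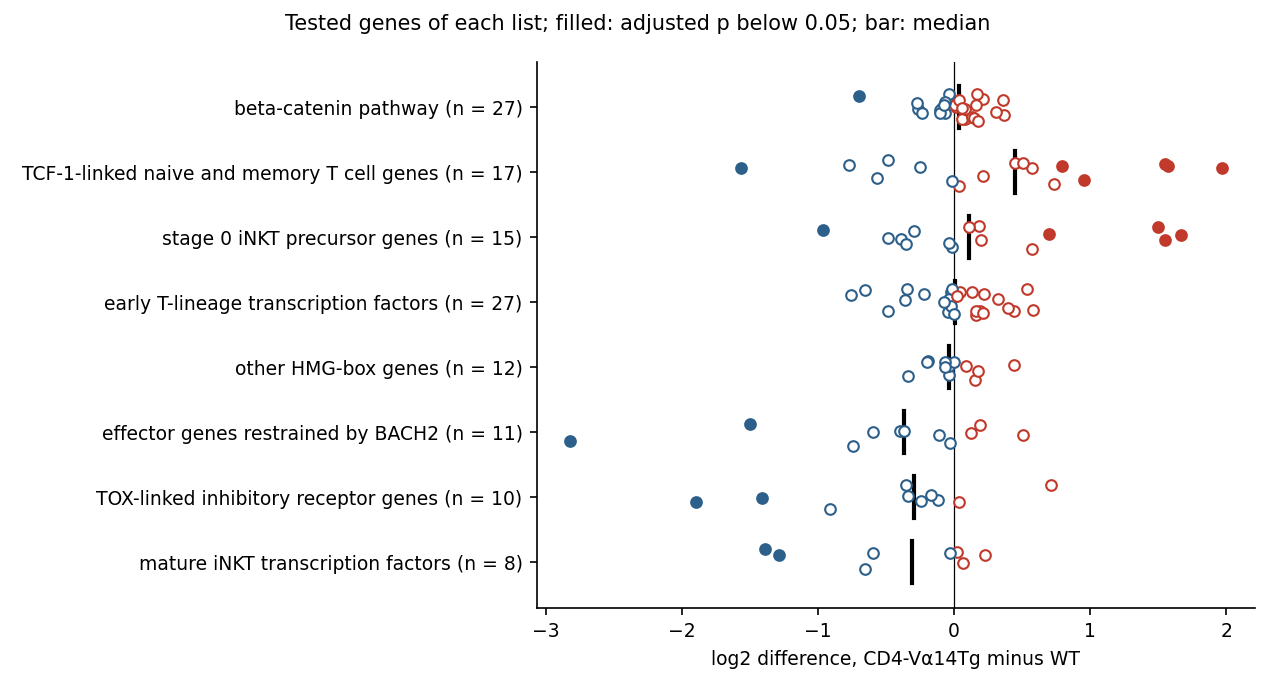
Log2 difference, CD4-Vα14Tg minus WT, of each tested gene in 8 gene lists related to Lef1, Sox4, Satb1, Bach2 and Tox, where filled points have a limma adjusted p below 0.05, red lies above 0, blue below, and black bars are list medians. The median runs from -0.36 for genes restrained by BACH2 to 0.45 for TCF-1-linked genes, and β-catenin pathway, early factor and HMG-box genes lie around 0.

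Markers of thymocytes, T cells, B cells and other cell types were read on the same arrays, where 0.61% of all genes tested were called higher and 1.34% lower. Of 9 measured genes of CD4+CD8+ thymocytes, 5 lay below the filter level on all 4 arrays, namely Rag2, Dntt, Cd8a, Cd24a and Arpp21. The summed linear signal of the list, which includes these 5 genes, was 339 to 343 in CD4-Vα14Tg and 389 to 410 in WT. Aqp11 was the tested gene of this sum with the largest fall. Of the 4 tested, 0 rose and 1 fell (Aqp11, log2 difference -1.04, a call lost without CD4-Vα14Tg replicate 2 or WT replicate 2, limma adjusted p = 0.0782 and 0.102). Cd1d1, which encodes the CD1d molecule itself, read 6.05 and 5.72 against 5.37 and 5.33, a log2 difference of 0.54 without overlap (limma adjusted p = 0.1496), and Ptcra had 0.12 (limma adjusted p = 0.921). Of 7 naive CD8 T cell markers measured, 4 were tested, 2 rose, Igfbp4 and Nsg2, and Actn1 (0.45) and Cd8b1 (-0.09) did not pass (limma adjusted p = 0.153 and 0.929). The summed signal of this list, which was higher along with Lef1 and Sox4, was 1902 to 1954 in CD4-Vα14Tg and 849 to 895 in WT, mostly from Igfbp4, Nsg2 and Actn1, all of which are also in the TCF-1-linked list. Their part in the Lef1 and Sox4 results was not tested. Cd8a itself lay below the filter level on all 4 arrays, and Cd8b1 read 5.24 and 5.52 against 5.40 and 5.52. Of 9 B cell genes, 6 lay below the filter level on all arrays, among them the precursor B cell genes Vpreb1, Ebf1 and Pax5, and the summed signal was 190 to 192 against 177 to 217. The 2 that were tested went opposite ways, Cd79b at 0.48 and Cd22 at -0.64 (limma adjusted p = 0.124 and 0.0785), each without overlap. The lack of overlap in these 2 genes and in Cd1d1 was shared by 39.1% of all genes tested. All 9 measured T and iNKT identity genes were tested and 0 passed limma's test, with 0 at an unadjusted p under 0.05. Among markers of myeloid, dendritic, erythroid, stromal, hepatocyte and regulatory T cells, 1 gene rose, the integrin gene Itgam (log2 difference 0.67, a call lost without any 1 array), and 0 fell. Zbtb46, Cd68 and Ikzf2 had -0.36, -0.32 and -0.36 at an unadjusted p under 0.05 (limma adjusted p = 0.245, 0.401 and 0.351). Summed signals were 1632 to 1757 in CD4-Vα14Tg against 1861 to 2364 in WT for dendritic markers. They were 1036 to 1121 against 1217 to 1232 for regulatory T cells and 318 to 328 against 330 to 335 for myeloid cells. Hepatocyte sums went the other way (109 against 98 to 104), and erythroid and stromal sums did not separate.

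**Figure D4:**
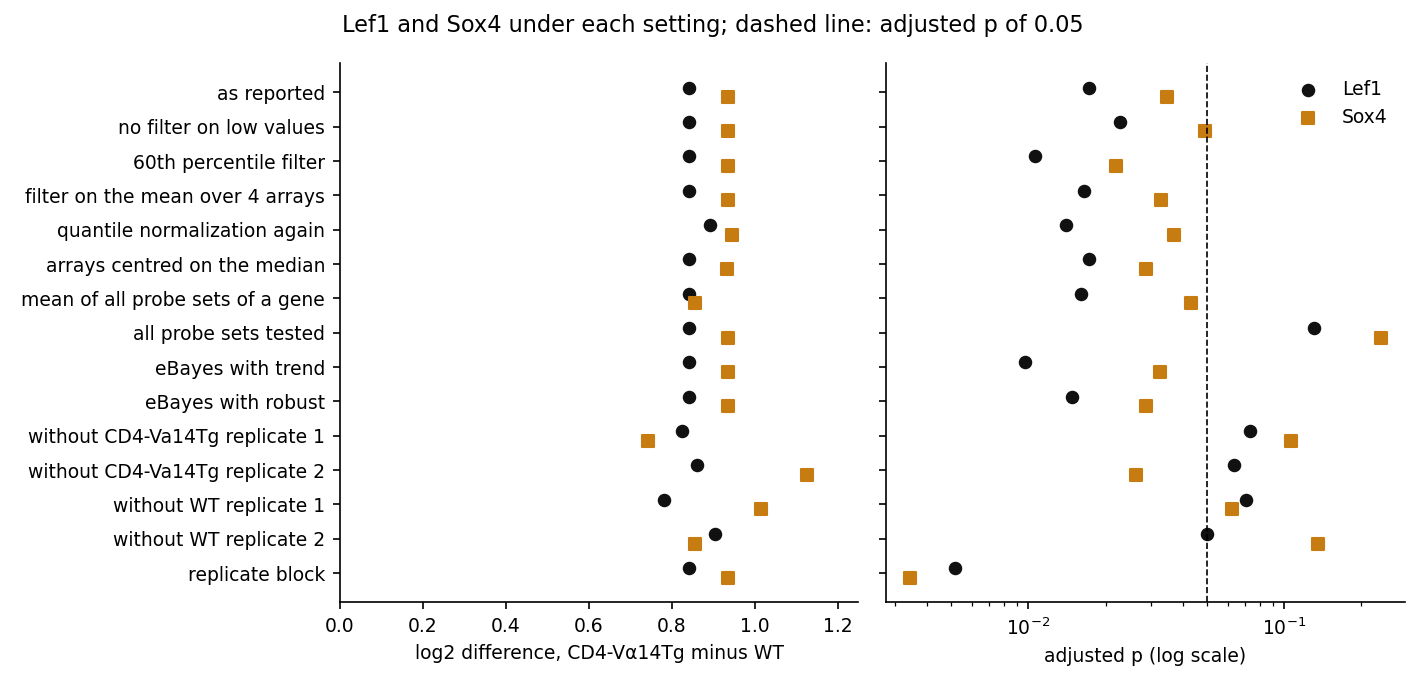
Log2 difference (left) and limma adjusted p on a log axis (right) of Lef1 (black circles) and Sox4 (orange squares) as reported and under 14 other settings. The differences lie between 0.74 and 1.13, while the adjusted p lies above the dashed line of 0.05 when every probe set is tested and when certain single arrays are left out. Settings that change only the filter, the variance model, the replicate block or the probe sets tested cannot move the difference.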

How the data were processed

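Total RNA of iNKT cells was measured on 4 arrays, 2 CD4-Vα14Tg and 2 WT, grouped by sample titles. The authors deposited 1 log2 value per probe set and array, made with RMA and Affymetrix Power Tools, per the submitters' processing notes. Versions, options and the build used are not stated in the labels. RMA's quantile step equalises the arrays, so a shift in total RNA per cell cannot be seen, and differences near background are compressed. No counts exist, and the number of arrays limits the precision.

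Names came from the platform's gene table: 23521 probe sets had 1 symbol, 1814 several and 16010 none. For each of 22180 genes the probe set with the highest mean was kept, and genes at or above the 40th percentile on at least 2 arrays were tested (13602). The genotype difference was tested with lmFit and eBayes of limma 3.58.1, run in R 4.3.3 (two-sided, Benjamini-Hochberg, threshold 0.05), after a test on simulated data. Intervals are limma's 95% intervals, and each ± is the SD of 2 arrays. Folds are 2 to the power of the log2 difference. Pathway list genes were named where they passed or ranked among the first 4 others by moderated t, relatives with their level; Ctnnb1, Axin2, Hmgb1, Hmgb2, Il7r, Bcl2, Egr2, Bcl11b, Myb among the early factors, and Cd24a were added after their values were seen. Genes and lists were chosen with earlier results of these data known. Lists are described by counts and medians without a test. Alternatives changed the filter, normalization, probe set summary, variance model, replicates and a replicate block. Motif letters were chosen after the data were seen.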

Additional observations from a re-analysis of the deposited data

How the results depend on the processing

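Lef1 and Sox4 kept a positive difference under all 14 alternatives run, and Tox a negative one. Alternatives that changed only the filter, the variance model, the replicate block or the probe sets tested refit the same values. The difference could not move under those, so its sign there says nothing about stability. Leaving out 1 array gave Lef1 0.78 to 0.90, Sox4 0.74 to 1.13, Satb1 -0.13 to 0.0805, Bach2 -0.31 to 0.26 and Tox -0.12 to -0.08. These fits called 0 to 1 of the 5 genes higher, and 166 to 221 genes in all, 52 to 74 higher and 101 to 147 lower; an arm left with 1 array is assumed to vary like the other. With every probe set tested, Lef1 (0.84, limma adjusted p = 0.130) and Sox4 (0.94, limma adjusted p = 0.239) lost their calls, 0 of the 5 genes were called higher, and 112 probe sets were called, 37 of them lower, with more features tested. A further quantile normalization turned the sign of Satb1 (0.0167, limma adjusted p = 0.992). With the replicate number as a replicate block, 674 genes were called, 252 higher and 422 lower, with Lef1 at an adjusted p of 0.00515 and Sox4 at 0.00343. With this block the higher and lower counts were 8 and 2 of the TCF-1-linked genes, 2 and 2 of the early factors, 0 and 4 of the BACH2-restrained genes, 1 and 3 of the TOX-linked genes, 0 and 4 of the mature iNKT factors, 1 and 1 of the thymocyte markers and 0 and 1 of the B cell markers. With every probe set tested they were 2 and 1 of the TCF-1-linked genes, 1 and 0 of the stage 0 genes and 0 and 0 of the mature iNKT factors. Same-numbered arrays deviated together with r = 0.193 across probe sets, but 2 pairs do not show that the numbers pair the samples. Tcf7 has no alternatives because it was not analysed here. The 2 arrays a genotype limit the precision throughout.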
